A study of Mus musculus with 12 samples.

Results

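The genes described are the 5 that encode the sterol-sensing machinery of the endoplasmic reticulum, *Insig1*, *Insig2*, *Scap*, *Srebf1* and *Srebf2*. They were chosen by gene symbol, and all 5 were found among the 38926 symbols of the count files and among the 14488 genes with enough reads for a test. RNA-seq of 12 mouse livers provided the counts, with 3 male mice per group and 1 liver per library. The groups were wild-type (WT) and *Rev-erbα*-/- mice at ZT8, in the light phase, and the same genotypes at ZT20, in the dark phase, where ZT is zeitgeber time in hours after lights on. All mice were 12 weeks old and on a mixed 129Ola/C57BL6 background. The *Rev-erbα*-/- mice carry the deletion in all their cells and not in the liver alone, and REV-ERBα, the product of *Nr1d1*, represses transcription as a nuclear receptor of the circadian clock. Food and water were freely available.

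SREBP-1 and SREBP-2, encoded by *Srebf1* and *Srebf2*, are transcription factors that are made as precursors in the membrane of the endoplasmic reticulum. SCAP escorts the precursors to the Golgi apparatus, where proteases release the active part, and the INSIG proteins hold SCAP back when sterols are plentiful. In the liver, SREBP-2 mainly drives genes of cholesterol synthesis and uptake and SREBP-1c those of fatty acid synthesis, *Insig1* is itself an SREBP target, and *Insig2* has been described as a gene that REV-ERBα represses.

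Between 17641809 and 26060192 reads per library were counted on genes, and 3 counts corresponded to between 0.117 and 0.167 CPM (the unit used throughout, reads of a gene relative to the size of its library after TMM scaling, which aligns libraries on the bulk of their genes). The members had between 1076 and 12115 counts in every library. All 10 hepatocyte markers were present in all groups. Their summed level at ZT8 was 69433 to 91562 CPM in WT and 77621 to 104153 in *Rev-erbα*-/- livers. At ZT20 it was 109599 to 120578 CPM in WT and 100875 to 107558 in *Rev-erbα*-/- livers, so that the times did not overlap in WT. The part of this difference in the members was not tested. The 8 Kupffer cell, 8 sinusoidal endothelial, 8 stellate, 7 cholangiocyte and 8 leukocyte markers reached summed levels of at most 556, 401, 514, 95.3 and 25.1 CPM. Adipocyte and exocrine pancreas markers stayed at or below 0.179 and 1.22 CPM. Reads of *Nr1d1* were not lost from *Rev-erbα*-/- livers (100.1 ± 26.9 CPM in WT and 71.8 ± 8.78 in *Rev-erbα*-/- at ZT8, SD, n = 3). Reads per symbol do not show which exons they come from, and *Nr1d1* is therefore no check of the genotype labels. *Arntl*, a gene that REV-ERBα represses, was at 0.652 ± 0.181 CPM in WT and 24.2 ± 1.52 in *Rev-erbα*-/- at ZT8. WT mice 2 and 3 at ZT8 stood apart from all other livers in acute-phase genes. *Saa1*, an acute-phase protein gene of the liver, reached 4972 and 6489 CPM in them, against 60.8 in WT mouse 1 and 21.2 to 96.8 in the other 9 livers, and *Saa2* reached 4849 and 6137 CPM against 13.6 in WT mouse 1. The members, the INSIG and SREBP ratios and the gene lists are therefore also compared without these mice, which leaves a single WT mouse at ZT8 whose spread is assumed to equal that of the other groups. In comparisons with WT at ZT8, fewer genes of any kind pass in that fit. A call lost in it therefore does not show that the call rested on these mice. No source says that the mice of a group came from separate litters or were handled on separate days, and the p-values measure the spread between these livers.

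*Insig2*, whose protein retains SCAP in the endoplasmic reticulum, lies on the minus strand of chromosome 1 of mm10 (121304353 to 121332589), with 14 annotated transcripts that start at 14 positions. RefSeq lists 3 starts for it, and the windows from 250 bases before to 50 bases after each start (GRCm38.p6, minus strand) are shown because the gene changed with genotype and because the counts, which are summed over all transcripts, do not tell the starts apart. The capitals mark the letters TGGGTCA, read here on the opposite strand, a sequence to which REV-ERB and ROR receptors can bind as part of a longer element.
Insig2 start 1, chr1:121332540-121332839: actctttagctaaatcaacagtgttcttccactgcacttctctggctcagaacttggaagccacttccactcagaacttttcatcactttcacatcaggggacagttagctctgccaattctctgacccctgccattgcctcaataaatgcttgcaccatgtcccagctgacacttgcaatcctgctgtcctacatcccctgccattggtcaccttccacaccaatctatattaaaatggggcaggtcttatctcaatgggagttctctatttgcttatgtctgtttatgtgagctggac
Insig2 start 2, chr1:121327975-121328274: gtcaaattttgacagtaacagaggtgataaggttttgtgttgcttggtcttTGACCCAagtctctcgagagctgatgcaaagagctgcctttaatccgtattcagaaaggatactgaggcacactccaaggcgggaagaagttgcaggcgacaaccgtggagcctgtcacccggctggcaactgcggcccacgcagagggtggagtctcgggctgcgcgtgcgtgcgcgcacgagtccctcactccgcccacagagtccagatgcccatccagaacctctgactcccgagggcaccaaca
Insig2 start 3, chr1:121327629-121327928: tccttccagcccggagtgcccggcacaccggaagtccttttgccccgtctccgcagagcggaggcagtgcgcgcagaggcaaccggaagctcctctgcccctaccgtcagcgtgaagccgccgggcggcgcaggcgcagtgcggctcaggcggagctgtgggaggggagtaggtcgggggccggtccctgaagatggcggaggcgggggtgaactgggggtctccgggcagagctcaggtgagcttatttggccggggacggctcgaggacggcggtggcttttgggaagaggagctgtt
Starts 2 and 3 lie 4565 and 4911 bases downstream of start 1, inside the gene, and the GC content of the windows was 46.0%, 57.0% and 69.3%. Both strands were searched for the ROR response element (RORE), its cores TAGGTCA and TGGGTCA, the E-box CACGTG, the sterol response element core ATCACCCCA and the glucocorticoid response element. TGGGTCA at position -199 of the window of start 2 was the single match in the 3 windows. The same letters occur in 3.98% of the 32851 windows of this length in the reference table, TAGGTCA in 2.61%, the whole RORE in 0.384% and the glucocorticoid response element in 0.475%. No window of the 5 genes held any of the last 3. A match describes the sequence and shows no binding, and the windows leave out most of the region around the gene.

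*Insig2* was the member that changed most, and the only member that passed the threshold between genotypes. At ZT8 its level was 79.9, 65.4 and 55.2 CPM in WT mice and 190, 195 and 215 CPM in *Rev-erbα*-/- mice. Every *Rev-erbα*-/- liver was above every WT liver, a separation that 25.6% of all tested genes showed in either direction. At ZT20 it was 349, 356 and 359 CPM in WT and 404, 333 and 257 CPM in *Rev-erbα*-/- mice, so that the genotypes overlapped and the *Rev-erbα*-/- mice were more dispersed (coefficient of variation 22.2% against 1.39% in WT). The plot of the members by mouse shows the same values beside those of the other genes. *Rev-erbα*-/- livers at ZT8 were thus 2.99-fold above WT at ZT8 and below all livers at ZT20.

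**Figure D1:**
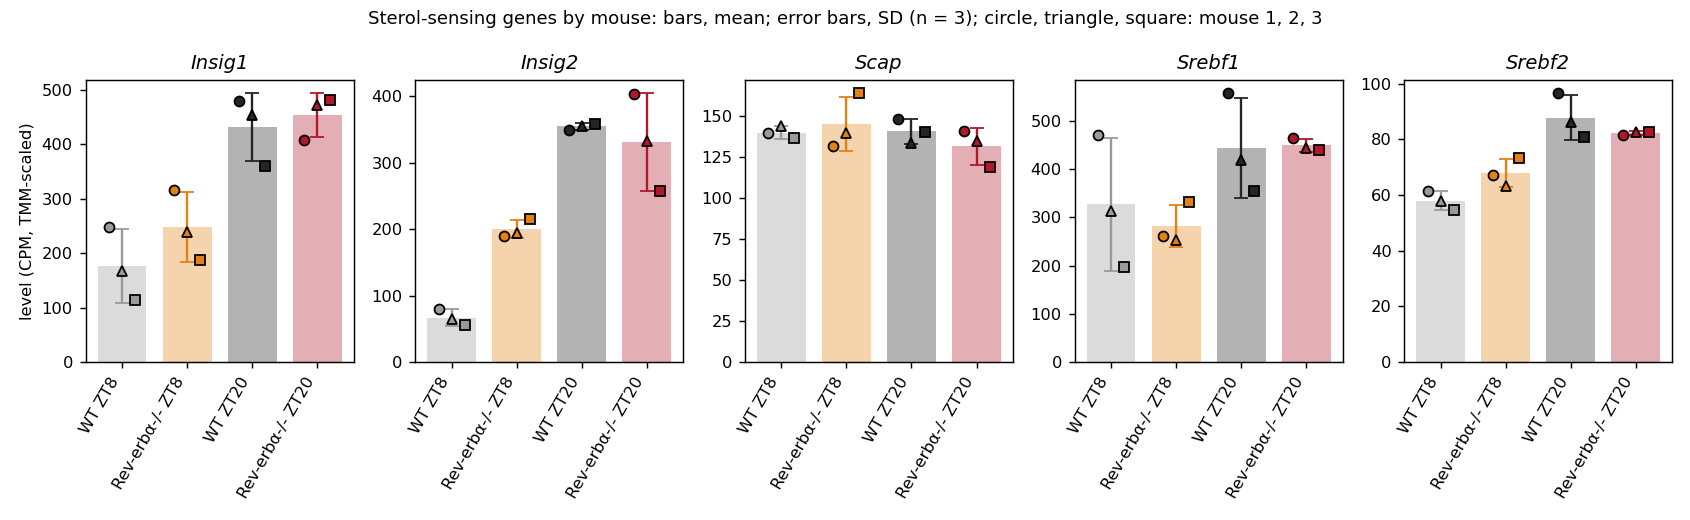
Level of each member in CPM (linear axis from 0, its own scale for each gene) in the 4 groups. Bars are means, error bars SD of 3 mice, and circles, triangles and squares are mice 1, 2 and 3. *Insig2* stands at 66.8 CPM in WT at ZT8, at 190 to 215 CPM in *Rev-erbα*-/- livers of that time, and above 256 CPM in every liver at ZT20, whereas *Scap* stays between 119 and 164 CPM in all 12 livers.

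*Insig2* rose in *Rev-erbα*-/- at ZT8 by a log2 fold change of 1.58 (SE 0.154, adjusted p = 3.9e-05, edgeR's quasi-likelihood test over 14488 genes with Benjamini-Hochberg adjustment). It was thus 1 member of 5 past the threshold of 0.05, in a comparison in which 8.45% of all tested genes passed it, 4.4% as higher and 4.04% as lower. At ZT20 the log2 fold change was -0.10 (95% interval -0.42 to 0.22, adjusted p = 0.851, edgeR), and 0 of 5 members passed by edgeR, also at an unadjusted p below 0.05 and by DESeq2, against 3.63% of all genes (2.09% higher and 1.54% lower). The genotype effect at ZT8 exceeded that at ZT20 by a log2 value of 1.68 (SE 0.213, adjusted p = 0.000436, edgeR interaction), and *Insig2* was the 1 member of 5 past the threshold there, against 5.88% of all genes, 3.05% with a higher and 2.83% with a lower value at ZT8. With WT mice 2 and 3 at ZT8 left out, the genotype effect at ZT8 was 1.32 (adjusted p = 0.00385, edgeR) and the interaction 1.41 (adjusted p = 0.00539, edgeR). In bulk liver, fewer cells that express a gene and less of its RNA per cell cannot be told apart.

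The change of *Insig2* with time was smaller in *Rev-erbα*-/- liver. From ZT8 to ZT20 it rose in WT by a log2 value of 2.41 (SE 0.157, 5.31-fold, adjusted p = 2.0e-07, edgeR) and in *Rev-erbα*-/- by 0.73 (SE 0.150, 1.66-fold, adjusted p = 0.0050, edgeR). The difference of these time effects is the interaction above with its sign turned. Leaving out WT mice 2 and 3 at ZT8 gave a rise in WT of 2.15 (adjusted p = 3.9e-05, edgeR).

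**Figure D2:**
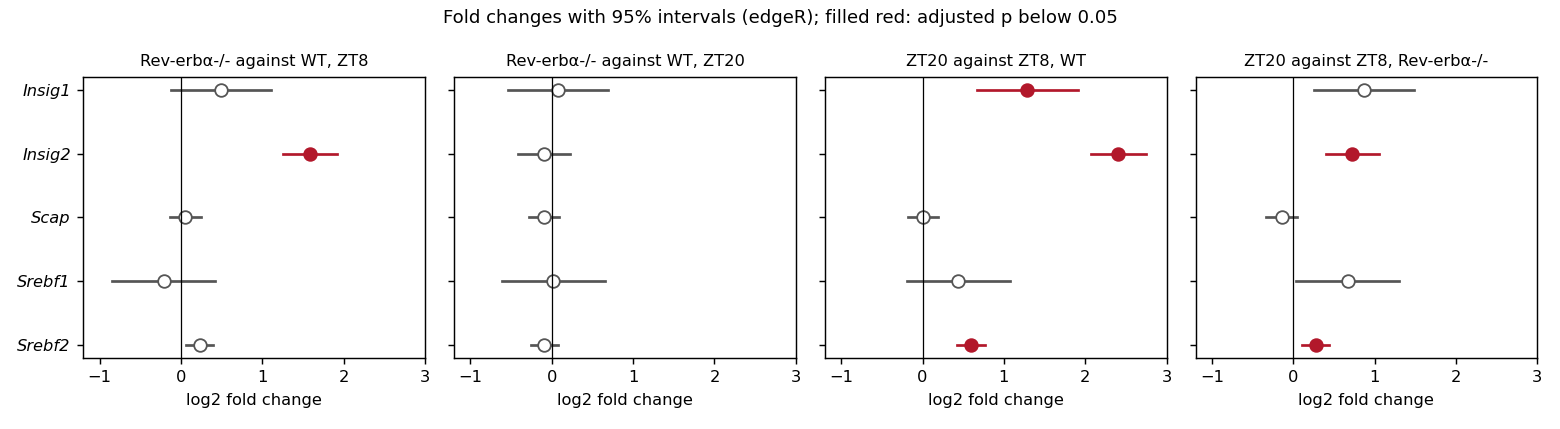
Log2 fold change of each member with its 95% interval from edgeR, for the genotypes at each time and for ZT20 against ZT8 in each genotype. Filled red points passed an adjusted p of 0.05. Only *Insig2* is filled at ZT8 (1.58), none at ZT20, 3 members in WT over time (2.41, 1.29 and 0.60) and 2 in *Rev-erbα*-/- over time (0.73 and 0.28).

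*Insig1*, the other INSIG gene, lies on the plus strand of chromosome 5 (28071363 to 28078662). Its promoter window (GRCm38.p6, plus strand) is shown for comparison with *Insig2*. The capitals mark the E-box CACGTG, to which clock activators and other basic helix-loop-helix factors can bind.
Insig1 start 1, chr5:28071162-28071461: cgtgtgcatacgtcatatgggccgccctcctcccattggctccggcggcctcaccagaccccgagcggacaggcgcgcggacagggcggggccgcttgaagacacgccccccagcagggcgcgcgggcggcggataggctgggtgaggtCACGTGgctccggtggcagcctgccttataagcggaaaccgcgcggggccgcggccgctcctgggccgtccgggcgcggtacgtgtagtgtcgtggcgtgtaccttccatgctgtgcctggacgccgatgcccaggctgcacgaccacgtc
The E-box lies at position -101, and 7.15% of all windows hold one. No other searched sequence matched there, and the window had a GC content of 71.7%.

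*Insig1* followed time of day more than genotype. At ZT8 it was at 247, 168 and 113 CPM in WT and 316, 239 and 188 CPM in *Rev-erbα*-/- mice. The genotypes overlapped, and the log2 fold change of 0.49 did not pass the test (95% interval -0.13 to 1.11, adjusted p = 0.320, edgeR). At ZT20 it was at 479, 454 and 360 CPM in WT and 408, 472 and 481 CPM in *Rev-erbα*-/- mice, again with overlap (log2 0.07, interval -0.54 to 0.69, adjusted p = 0.945, edgeR). Without WT mice 2 and 3, the ZT8 difference between genotypes was -0.004 (adjusted p = 0.998, edgeR). WT mouse 1, the mouse kept, had the highest level of *Insig1* in its group.

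*Insig1* rose from ZT8 to ZT20 in WT by a log2 value of 1.29 (SE 0.277, 2.45-fold, adjusted p = 0.00726, edgeR), with no overlap, as held for 42.3% of all genes. The 3 members of 5 that rose in WT over time were *Insig1*, *Insig2* and *Srebf2*, in a comparison in which 27.7% of all genes passed, 13.8% as higher and 13.9% as lower. In *Rev-erbα*-/- mice the ZT20 levels of *Insig1* were also all above the ZT8 levels, as held in either direction for 35% of all genes, but the log2 fold change of 0.87 (interval 0.26 to 1.49) had an adjusted p of 0.0567 (edgeR) and did not pass. It passed with DESeq2 (adjusted p = 0.0212), and in edgeR when WT mouse 1 or 3 at ZT8 was left out of the shared fit (adjusted p = 0.0167 and 0.0146, edgeR), or *Rev-erbα*-/- mouse 1 at ZT8 (log2 1.09, adjusted p = 0.0426, edgeR). In WT, the rise did not pass without WT mice 2 and 3 at ZT8 (0.79, adjusted p = 0.0858, edgeR). The interaction of *Insig1* was 0.42 (interval -0.45 to 1.28, adjusted p = 0.614, edgeR), so that a difference of the genotype effects was not detectable.

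Because both INSIG proteins bind SCAP, their transcripts were also compared per length, as CPM per kilobase of merged exon (3.093 kb for *Insig1* and 3.473 kb for *Insig2*). Merged exons join all annotated transcripts (2 for *Insig1* and 14 for *Insig2*), and those made in these livers may be shorter. Shares and ranks between genes depend on these lengths, whereas differences of a log2 ratio between groups do not. On this scale *Insig2* made up 22.3%, 25.8% and 30.3% of the INSIG transcripts in WT mice at ZT8, and 34.9%, 42.0% and 50.5% in *Rev-erbα*-/- mice at ZT8. At ZT20 the share was 39.4% to 47.0% in WT and 32.2% to 46.9% in *Rev-erbα*-/- mice. The WT livers at ZT8 thus had the 3 lowest shares of all 12 livers, and *Insig1* exceeded *Insig2* in all livers but *Rev-erbα*-/- mouse 3 at ZT8.

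The log2 ratio of *Insig2* to *Insig1* was -1.51 ± 0.297 in WT and -0.44 ± 0.465 in *Rev-erbα*-/- at ZT8 (SD, n = 3). The difference of 1.06, a 2.09-fold ratio, had no overlap, with an exact two-sided permutation p of 0.1, the smallest that 3 mice against 3 allow. At ZT20 the ratios were -0.44 ± 0.236 in WT and -0.64 ± 0.446 in *Rev-erbα*-/- (exact permutation p = 0.4). Over time the ratio differed 2.10-fold in WT (exact permutation p = 0.1) and 0.873-fold in *Rev-erbα*-/- (exact permutation p = 0.7). The 8 ratio comparisons, 4 for the INSIG and 4 for the SREBP genes, cannot reach 0.05 in this design and were not adjusted for their number. Left out 1 at a time, no mouse took the ZT8 difference outside 0.83 to 1.29. It was 1.35 without WT mice 2 and 3, and the WT time difference 1.36, with no test. The ratio uses counts of the same library, so that the scaling of libraries cancels.

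**Figure D3:**
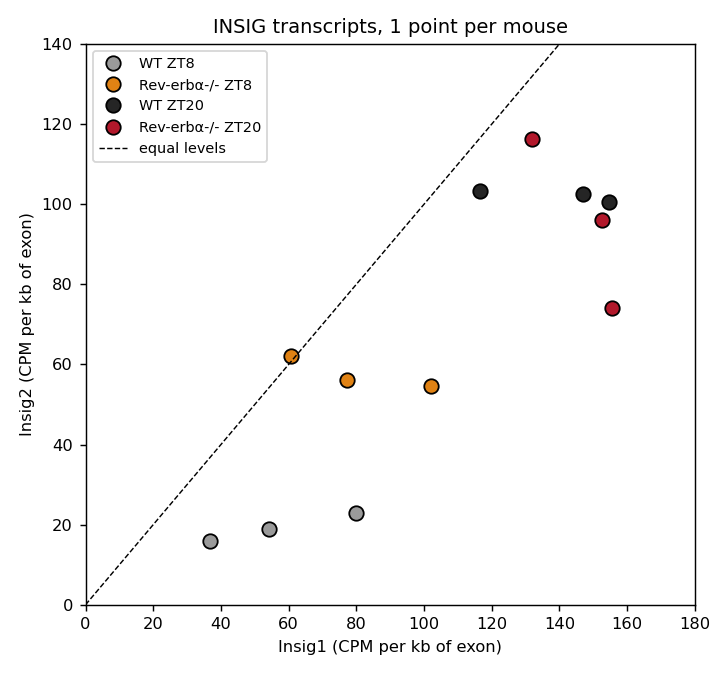
Level of *Insig2* against *Insig1* in each of the 12 livers, in CPM per kb of merged exon on linear axes, with 1 point per mouse and colours for the 4 groups. The dashed line marks equal levels. The 3 WT livers at ZT8 lie lowest on the *Insig2* axis, at a mean of 19.2, the 3 *Rev-erbα*-/- livers at ZT8 at 57.6, and both groups at ZT20 near 100 (102 and 95.4).

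*Srebf2*, which encodes SREBP-2, lies on the plus strand of chromosome 15 (82147181 to 82205379) and carries the microRNA gene *Mir33* in an intron. Its promoter window (GRCm38.p6, plus strand) is shown because it was the single window of the 5 genes with a sterol response element core, the sequence through which SREBPs can act on their own genes. The capitals mark ATCACCCCA.
Srebf2 start 1, chr15:82147019-82147318: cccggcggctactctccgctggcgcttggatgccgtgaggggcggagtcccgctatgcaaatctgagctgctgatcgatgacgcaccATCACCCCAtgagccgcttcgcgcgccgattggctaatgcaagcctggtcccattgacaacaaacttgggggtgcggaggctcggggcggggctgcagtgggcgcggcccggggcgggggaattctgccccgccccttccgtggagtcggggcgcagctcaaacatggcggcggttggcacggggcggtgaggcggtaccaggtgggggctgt
The core lies at position -163, and 0.28% of the 32851 windows hold it.

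*Srebf2* differed between times with little spread within groups. At ZT8 it was at 61.6, 57.8 and 54.7 CPM in WT and 67.4, 63.2 and 73.3 CPM in *Rev-erbα*-/- mice. At ZT20 it was at 96.6, 86.2 and 80.7 CPM in WT and 81.6, 82.7 and 82.6 CPM in *Rev-erbα*-/- mice. All ZT20 livers were above all ZT8 livers of either genotype, and at ZT8 the genotypes did not overlap. In either direction, 25.6% of all genes did not overlap between genotypes at ZT8. Between times, the same held for 42.3% in WT and 35% in *Rev-erbα*-/-.

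*Srebf2* rose from ZT8 to ZT20 in WT by a log2 value of 0.60 (SE 0.0793, 1.51-fold, adjusted p = 5.3e-05, edgeR) and in *Rev-erbα*-/- by 0.28 (SE 0.0790, 1.21-fold, adjusted p = 0.0250, edgeR). In *Rev-erbα*-/- mice over time, *Srebf2* and *Insig2* were the 2 members of 5 that rose, against 17.5% of all genes, 8.79% as higher and 8.67% as lower. The call of *Srebf2* in *Rev-erbα*-/- was lost on leaving out any 1 of *Rev-erbα*-/- mice 1 and 2 at ZT8 (adjusted p = 0.0567 and 0.116, edgeR) or *Rev-erbα*-/- mice 1, 2 and 3 at ZT20 (0.0523, 0.0786 and 0.0604, edgeR). Between genotypes at ZT8 the log2 fold change was 0.23 (interval 0.06 to 0.40, adjusted p = 0.0922, edgeR), at ZT20 -0.09 (interval -0.26 to 0.07, adjusted p = 0.666, edgeR), and the interaction was 0.32 (interval 0.08 to 0.56, adjusted p = 0.112, edgeR). None of these passed. Without WT mice 2 and 3 the rise in WT was 0.51 (adjusted p = 0.0108, edgeR) and the ZT8 genotype difference 0.14 (adjusted p = 0.685, edgeR).

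*Srebf1*, which encodes SREBP-1a and SREBP-1c from different starts, lies on the minus strand of chromosome 11 (60199089 to 60222581). The counts add up both forms, and none of its 3 RefSeq windows held a searched sequence. In GENCODE, its exons overlap those of *Rai1* on the opposite strand over 109 bases. Reads there, counted without strand, are left out as ambiguous if the annotation used for counting has this overlap, which was not checked. In the WT groups *Srebf1* had the largest coefficient of variation of the 5 members, but not in the *Rev-erbα*-/- groups. At ZT8 it was at 471, 313 and 197 CPM in WT (coefficient of variation 42.1%) and at 261, 253 and 332 CPM in *Rev-erbα*-/- mice. At ZT20 it was at 557, 419 and 354 CPM in WT and 464, 445 and 439 CPM in *Rev-erbα*-/- mice.

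For *Srebf1* the genotypes overlapped at both times, and neighbouring groups in the order of the means all overlapped. The log2 fold change between genotypes was -0.21 at ZT8 (interval -0.85 to 0.42, adjusted p = 0.707, edgeR) and 0.02 at ZT20 (interval -0.61 to 0.65, adjusted p = 0.990, edgeR). The interval at ZT8 runs from 0.556-fold to 1.34-fold. From ZT8 to ZT20 it was 0.44 in WT (interval -0.19 to 1.07, adjusted p = 0.293, edgeR) and 0.67 in *Rev-erbα*-/- (interval 0.04 to 1.31, adjusted p = 0.143, edgeR). In *Rev-erbα*-/- the times did not overlap, as held in either direction for 35% of all genes. The 2 log2 fold changes that use WT livers at ZT8 depended on single mice of that group. Without WT mouse 1 the WT time difference was 0.79 and passed (adjusted p = 0.0274, edgeR). It was 0.18 without WT mouse 3, and -0.09 without WT mice 2 and 3 together. The genotype difference at ZT8 was 0.14 without WT mouse 1 and -0.47 without WT mouse 3. The *Rev-erbα*-/- time difference passed without WT mouse 1 or 3 at ZT8 (adjusted p = 0.0429 and 0.0301, edgeR), which enter it only through the shared fit. It also passed in a fit of the 6 *Rev-erbα*-/- livers alone (adjusted p = 0.00278, edgeR).

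The levels of the SREBP genes were compared per length as well, with the same limit of merged exon lengths (12 annotated transcripts for *Srebf1* and 7 for *Srebf2*). *Srebf1* stood at 58.1 ± 24.5 CPM per kb in WT and 50.1 ± 7.69 in *Rev-erbα*-/- at ZT8, against 8.08 ± 0.481 and 9.46 ± 0.709 for *Srebf2*. The log2 ratio of *Srebf1* to *Srebf2* at ZT8 was 2.76 ± 0.544 in WT and 2.40 ± 0.118 in *Rev-erbα*-/- mice. At ZT20 it was 2.66 ± 0.200 and 2.80 ± 0.0513, in the same order. The genotypes overlapped at both times (exact permutation p = 0.4 at each), as did the times in WT (exact permutation p = 0.9). In *Rev-erbα*-/- mice the ratio was 1.32-fold higher at ZT20 with no overlap (exact permutation p = 0.1, the smallest possible). The log2 difference between genotypes at ZT8 was -0.89 without WT mice 2 and 3, and that between times in WT -0.62, with no test.

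*Scap*, which encodes the escort protein, lies on the plus strand of chromosome 9 (110333288 to 110384950) and was the member whose group means differed least in fold. It was at 140, 144 and 136 CPM in WT and 132, 140 and 164 CPM in *Rev-erbα*-/- mice at ZT8, and at 148, 133 and 140 CPM in WT and 141, 135 and 119 CPM in *Rev-erbα*-/- mice at ZT20. All groups overlapped. Its log2 fold changes ran from -0.14 for time in *Rev-erbα*-/- (interval -0.33 to 0.05, adjusted p = 0.300, edgeR) to 0.05 between genotypes at ZT8 (interval -0.14 to 0.24, adjusted p = 0.772, edgeR), and the interaction was 0.15 (interval -0.12 to 0.42, adjusted p = 0.555, edgeR). In these simple comparisons all intervals lie between 0.795-fold and 1.18-fold. In GENCODE, exons of *Scap* overlap an unclassified transcript, *5830462I19Rik*, on the opposite strand over 13.2% of their length. Reads there are left out as ambiguous only if the annotation used for counting also holds this transcript, which was not checked. Its 2 RefSeq windows, whose starts lie 68 bases apart, share 1 E-box CACGTG, at position 29 from the upstream start.

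Set in order per length, *Insig1* was above *Insig2* in all 4 groups, from 56.9 against 19.2 CPM per kb in WT at ZT8 to 139 against 102 in WT at ZT20. *Srebf1* and *Insig1* did not differ beyond their spread in WT at ZT8 (58.1 ± 24.5 and 56.9 ± 21.8). *Scap* lay between 17.7 and 19.5 CPM per kb and *Srebf2* between 8.08 and 12.2, the lowest of the 5 in all groups. In WT at ZT8, *Insig2* (19.2 ± 3.57) and *Scap* (18.8 ± 0.515) were at like levels on this scale, whereas in the other groups *Insig2* was well above *Scap*. The order of genes rests on merged exon lengths over all annotated transcripts. It may differ for the transcripts made in these livers, which the counts do not show.

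**Figure D4:**
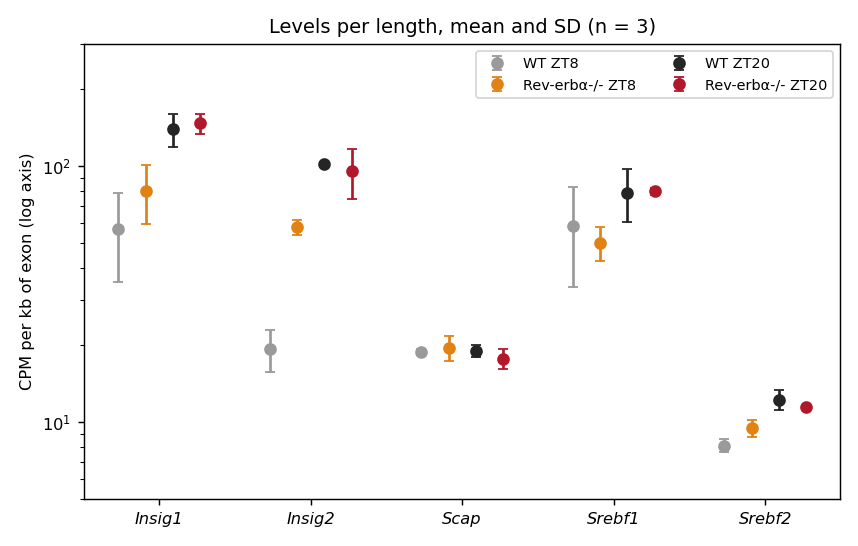
Mean level of the 5 members in CPM per kb of merged exon on a log axis, with SD of 3 mice as error bars (hidden where smaller than the point) and colours for the 4 groups. *Srebf2* is the lowest member in all groups, at 8.08 to 12.2, and *Insig2* has the widest range between groups, 19.2 to 102.

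Genes whose pattern over the 12 livers was most like that of a member were looked up by Pearson correlation of log2 CPM, as a description. The livers share 4 group means, so that any gene with the same group pattern ranks high. An r above 0.95 was reached by 69 genes for *Insig2*, 26 for *Insig1* and 37 for *Srebf2*. *Insig2* was followed most closely by *Lonrf3* (r = 0.993), *Cry1* (0.990), a clock repressor, and *Ahctf1* (0.987). *Cry1* at ZT8 was at 6.50 CPM in WT and 26.1 CPM in *Rev-erbα*-/- livers, and at ZT20 at 64.9 and 54.8 CPM, the same order of groups as *Insig2*. *Insig1* was followed by *Fdft1* (0.983) and *Hmgcs1* (0.976), both enzymes of cholesterol synthesis, with *Gsta3* (0.981), a glutathione S-transferase, between them. *Srebf2* was followed by *Acss2* (0.983), which makes acetyl-CoA in the cytosol, *Steap3* (0.982) and *Slc17a8* (0.982). Among the members themselves, r was 0.913 for *Insig2* and *Srebf2*, 0.890 for *Insig1* and *Srebf2* and 0.857 for *Insig1* and *Insig2* over the 12 livers. After the group means were taken out, r was 0.315, 0.387 and 0.242 for these pairs, and the highest pair was *Srebf1* and *Srebf2* (0.837). In WT at each time, the same mouse was highest and the same mouse lowest for both genes.

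Around the members, 26 genes of SREBP processing and sterol-regulated degradation were nearly level between genotypes. The counts of this and the following lists stand against the shares of all tested genes called by edgeR. These shares were 4.4% higher and 4.04% lower at ZT8, and 2.09% and 1.54% at ZT20. In the interaction they were 3.05% and 2.83%. Over time they were 13.8% and 13.9% in WT, and 8.79% and 8.67% in *Rev-erbα*-/-. At ZT8, 1 of 26 was higher, *Syvn1* (0.43, adjusted p = 0.035, edgeR), a ubiquitin ligase of the endoplasmic reticulum, and none was lower, with a median log2 fold change of 0.01. At ZT20, 0 of 26 passed by edgeR or DESeq2, with 5 at an unadjusted p below 0.05. The interaction was called for 1 of 26 by edgeR, as higher at ZT8, and DESeq2 also called 1. Over time in WT, 4 were higher and 2 lower, with *Syvn1* at 1.23, *Sar1b*, a GTPase of the vesicles that carry SCAP, at 0.70, *2410131K14Rik*, also called *Spring1*, at 0.50, and *Rnf145*, a sterol-responsive ubiquitin ligase, at -0.75. Over time in *Rev-erbα*-/-, 4 were likewise higher and 2 lower. Of all genes, 27.7% in WT and 17.5% in *Rev-erbα*-/- passed over time in either direction, so that this list did not stand out. Without WT mice 2 and 3, neither *Syvn1* at ZT8 (0.48) nor *2410131K14Rik* over time in WT (0.65) passed. Both values were farther from 0 than with these mice.

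The 23 SREBP-2 targets of cholesterol synthesis and uptake moved with time more than with genotype. At ZT8, 1 of 23 was higher in *Rev-erbα*-/-, *Tm7sf2*, a sterol reductase (0.44, adjusted p = 0.016, edgeR), and 1 was lower, whereas DESeq2 called 5 in all. The other 21 did not pass in edgeR, and 22 of 23 had a log2 fold change above 0, with a median of 0.34 against 0.00 over all genes. Without WT mice 2 and 3, 16 of 23 were above 0 and the median was 0.14, and *Tm7sf2* (0.26) did not pass. At ZT20, 0 of 23 passed by edgeR or DESeq2 (2 at an unadjusted p below 0.05), and the median was -0.03. Over time, 16 of 23 rose and none fell in WT (median 0.81), led by *Pmvk* (2.22), *Mvd* (2.06), *Lss* (1.58) and *Hmgcs1* (1.43), all enzymes of the pathway, and 10 of 23 rose in *Rev-erbα*-/- (median 0.39). In WT without mice 2 and 3 at ZT8, 9 rose (median 0.70), and *Hmgcs1* did not pass (1.08, adjusted p = 0.224, edgeR). The interaction was called for 0 of 23 by edgeR or DESeq2, with 9 at an unadjusted p below 0.05.

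Of the 18 SREBP-1c targets of fatty acid synthesis, *Elovl5*, a fatty acid elongase, was the 1 gene called between genotypes by edgeR, higher at ZT8 (0.52, adjusted p = 0.037, edgeR) and lower at ZT20 (-0.62, adjusted p = 0.026, edgeR) in *Rev-erbα*-/-, with an interaction of 1.15 (adjusted p = 0.0038, edgeR). DESeq2 called 4 of 18 at ZT8, 1 at ZT20 and 3 in the interaction. Without WT mice 2 and 3, the ZT8 value (0.34) and the interaction (0.95, adjusted p = 0.0568, edgeR) did not pass. Over time in WT 10 rose and 1 fell (median 1.35), led by *Pnpla3* (4.72), *Acacb* (2.59), *Scd1* (2.55) and *Acss2* (2.15), and without mice 2 and 3 at ZT8, 6 rose and none fell (median 0.93), and *Scd1* did not pass (1.95, adjusted p = 0.0862, edgeR). In *Rev-erbα*-/- 9 rose and 2 fell (median 0.88). *Srebf1* itself passed in neither genotype.

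LXR, a receptor for oxysterols, induces *Srebf1* and sterol exporters. Of all tested genes, 4.04% were lower and 4.4% higher in *Rev-erbα*-/- at ZT8. Of LXR and its other targets, 3 of 10 were lower in *Rev-erbα*-/- at ZT8 and none was higher (median -0.27). These were *Abcg8* (-0.93, adjusted p = 4.3e-05, edgeR) and *Abcg5* (-0.77, adjusted p = 3.7e-05, edgeR), the paired exporters of sterols into bile, and *Abcg1* (-0.52, adjusted p = 0.043, edgeR), another sterol exporter. *Abcg5* was at 145 ± 9.52 CPM in WT and 85.2 ± 9.49 in *Rev-erbα*-/- livers at ZT8, and at ZT20 at 50.1 ± 2.65 and 47.7 ± 0.922 CPM, so that, unlike *Insig2*, it was highest in WT at ZT8. The interaction was called for *Abcg8* (-0.78) and *Abcg5* (-0.70). *Abcg5* and *Abcg8* lie head to head on opposite strands, and the annotation lets them overlap. Over time in WT 6 fell and 2 rose, among them *Abcg8* (-1.69), *Abcg5* (-1.54), *Mylip* (-0.59), which marks the LDL receptor for breakdown, and *Scd2* (0.48), a desaturase, and in *Rev-erbα*-/- 2 rose and 2 fell. At ZT20, 0 of 10 passed by edgeR or DESeq2, also at an unadjusted p below 0.05. *Abcg8* (-0.89) and *Abcg5* (-0.66) still passed at ZT8 without WT mice 2 and 3, and *Abcg1* did not. DESeq2 called 5 of 10 at ZT8. Over time in WT without these mice, 2 of 10 fell and none rose, and *Mylip* (-0.28, adjusted p = 0.391, edgeR) and *Scd2* (0.38, adjusted p = 0.227, edgeR) did not pass.

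**Figure D5:**
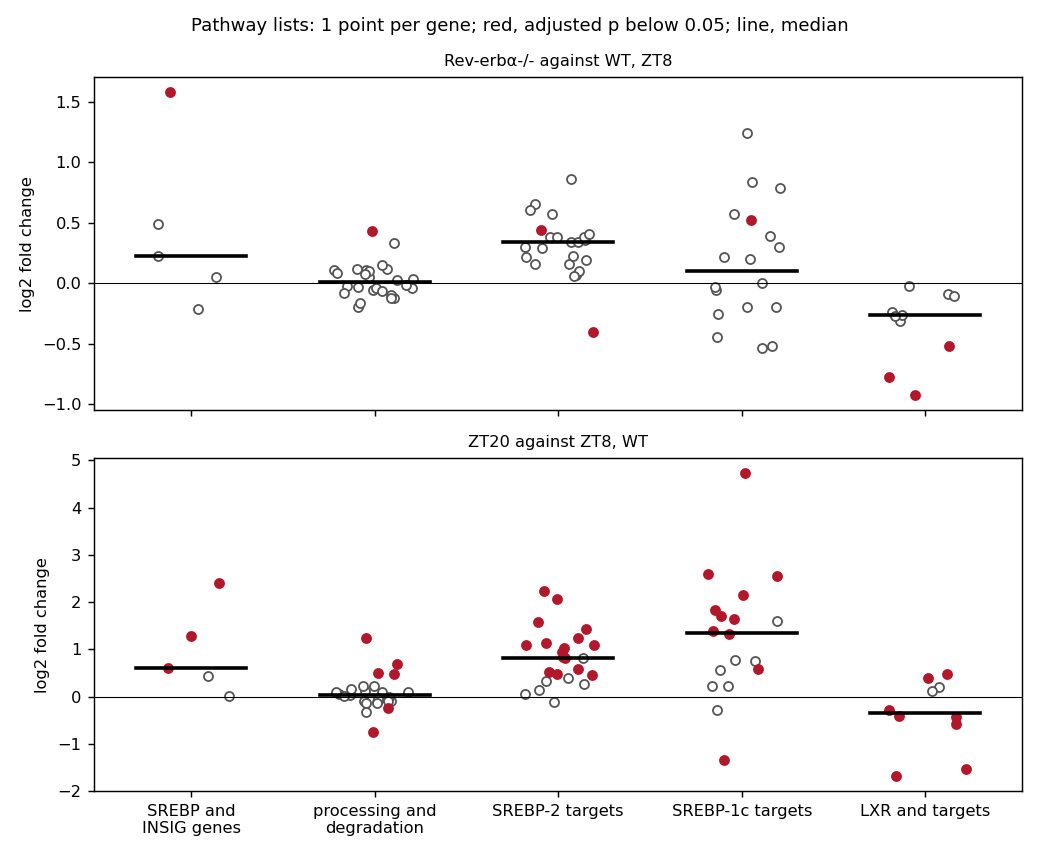
Log2 fold change of each gene of the pathway lists, 1 point per gene, between genotypes at ZT8 (upper panel) and between times in WT (lower panel). Red points passed an adjusted p of 0.05 in edgeR, and black lines are medians. In the upper panel only *Insig2* (1.58) is red among the members, with 1 higher and 1 lower of 23 SREBP-2 targets and 1 of 18 SREBP-1c targets. In the lower panel 3 of 5 members, 16 of 23 SREBP-2 targets and 11 of 18 SREBP-1c targets are red. Of all tested genes, 8.45% passed in the upper comparison and 27.7% in the lower one.

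Of the clock genes that act or are read at ROR elements, 9 of 10 could be tested, *Rorb* being too low. At ZT8, 5 were higher and 1 was lower in *Rev-erbα*-/- (median 1.32), led by *Arntl* (5.18), *Npas2* (3.01), *Nfil3* (2.29) and *Cry1* (2.00), all farther from 0 than *Insig2* at 1.58. The interaction was called for 5, all higher. In the fit without WT mice 2 and 3, 4 were higher and 1 lower at ZT8 and likewise in the interaction, where *Npas2* did not pass (2.85, adjusted p = 0.126, edgeR) and *Nr1d1* passed as lower (-1.31, adjusted p = 0.0128, edgeR). At ZT20 *Nr1d2* alone was higher, and it did not pass in the fit without these mice. Over time 7 rose and 2 fell in WT, with *Npas2* (6.13), *Arntl* (6.05), *Nr1d1* (-5.58) and *Nr1d2* (-3.47) farthest from 0, and 5 rose and 3 fell in *Rev-erbα*-/-. The counts over time in WT were the same without WT mice 2 and 3. The 15 acute-phase genes moved with WT mice 2 and 3: 8 were lower in *Rev-erbα*-/- at ZT8, led by *Saa2* (-8.54), *Saa1* (-6.80), *Lcn2* (-6.03) and *Orm2* (-5.14), 0 of 15 without these mice (edgeR, 2 at an unadjusted p below 0.05), and 0 of 15 at ZT20 by edgeR or DESeq2, also at an unadjusted p below 0.05. Over time in WT 8 fell and 1 rose, with the same 4 genes farthest from 0 (-8.30, -5.80, -5.54 and -4.99), against none fallen and 1 risen without these mice. Their summed level was 19898 to 54294 CPM in WT at ZT8 and 19026 to 24834 CPM in the other groups. WT mouse 1 at ZT8, the WT liver without high *Saa1*, had the highest level of its group for *Insig1*, *Insig2*, *Srebf1* and *Srebf2*. The part of the acute-phase state in these 4 genes was not tested.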

How the data were processed

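The data were single-sample tables of raw counts from liver poly(A) RNA. According to the submitters' processing notes, the authors aligned reads to mm10 with TopHat, kept uniquely mapped reads and counted them by gene symbol (HTSeq-count, union mode, no strand, minimum alignment quality of 10), and the deposited counts are whole numbers that were neither normalized nor pooled. SAMtools and DESeq2 1.6.3 were also named, and the versions of TopHat and HTSeq are not given in the sources used here. The 5 summary lines of each file name no gene and were kept out of library sizes. Reads on no gene amounted to 9.66% to 11.5% and ambiguous reads to 3.53% to 4.14% of the counted reads. Alignments set aside as not unique numbered 1.76 to 3.28 per counted read in WT and 2.29 to 2.72 in *Rev-erbα*-/- at ZT8. At ZT20 they numbered 1.56 to 1.67 in WT and 1.24 to 1.56 in *Rev-erbα*-/-, below every ZT8 library. WT mice 2 and 3 at ZT8 were at 2.89 and 3.28, against 1.76 in WT mouse 1. The part of this library difference in the time effects was not tested. Reads from transcripts of a gene are added up, and reads over exons of overlapping genes are lost.

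Low genes were removed with filterByExpr, libraries were scaled with TMM, and 4 group means were fitted over all 12 samples with glmQLFit and glmQLFTest (robust) in edgeR 4.0.16 under R 4.3.3, after the procedure was tested on simulated data. Benjamini-Hochberg adjustment was applied within each of the 5 contrasts. Group labels came from the sample titles. All replicate pairs differed by more than counting noise (chi-square per degree of freedom 7.84 or more). Ratios were compared by exact two-sided permutation tests. Alternatives were DESeq2 1.42.0, DESeq2 size factors in place of TMM, other filters, 6 samples per fit, the replicate number as a block, a threshold of 0.01, and leaving out each mouse or WT mice 2 and 3 at ZT8. Positions and exon lengths came from GENCODE on mm10 and promoter windows from RefSeq (GRCm38.p6).

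Named were the 5 members, up to 4 genes past the threshold with the largest change per pathway list (genotypes at ZT8, and times in WT), and the 3 genes most correlated with each member that passed a test (log2 CPM, prior count 0.5), besides *Nr1d1*, *Arntl*, *Saa1* and *Saa2* as checks. *Nr1d2* at ZT20 and *Elovl5* at ZT20 were named after their values were seen. The lists were SREBP processing and degradation, SREBP-2 targets, SREBP-1c targets, LXR and its targets, clock genes at ROR elements, acute-phase genes and markers of liver and neighbouring cell types. The values of 1 gene of the SREBP-2 target list are not reported here by name. The members and lists were chosen with earlier results of these data known.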

Additional observations from a re-analysis of the deposited data

Results flagged for a closer look

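The genotype effect on *Insig2* differed between the times by a test of the difference itself. It was higher at ZT8 than at ZT20 by a log2 value of 1.68 (SE 0.213, adjusted p = 0.000436, interaction in edgeR's quasi-likelihood test), with all 3 *Rev-erbα*-/- livers above all 3 WT livers at ZT8 and overlap at ZT20. Of all genes, 25.6% did not overlap between genotypes at ZT8, in either direction. Leaving out any 1 mouse kept the interaction of *Insig2* between 1.53 and 1.85.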

How the results depend on the processing

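Of 495 log2 fold changes of the members under the alternatives, 460 kept their direction and their side of the threshold, 7 lost and 13 gained the call, and 15 changed sign, none of these past the threshold. For *Insig2* all calls held. The count of genes past the threshold moved most at an adjusted p of 0.01 (472 at ZT8, 223 at ZT20, 357 for the interaction, 2343 and 1231 over time in WT and *Rev-erbα*-/-), without WT mice 2 and 3 at ZT8 (346 at ZT8, 493 for the interaction, 1795 over time in WT) and with only the 6 samples compared (769 at ZT8). With 1 mouse left out the counts were 542 to 1811 at ZT8, 239 to 656 at ZT20, 493 to 1260 for the interaction and 1566 to 2847 over time in *Rev-erbα*-/-, against 1224, 526, 852 and 2530.

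Over time in *Rev-erbα*-/-, *Insig1* (0.87) gained the call with DESeq2 (0.87), at least 10 counts in every sample (0.88), only 6 samples (0.87) and without WT mice 2 and 3 (0.88), and *Srebf1* with only 6 samples (0.67) and without these mice (0.67), while *Srebf2* (0.28) lost it at 0.01. Without these mice, *Insig1* lost the call over time in WT (0.79), and *Insig1* at ZT8 (-0.0040), *Insig1* in the interaction (-0.082) and *Srebf1* over time in WT (-0.094) changed sign. With 1 mouse left out, the ranges in *Rev-erbα*-/- over time were 0.71 to 1.09 for *Insig1*, 0.60 to 0.80 for *Srebf1* and 0.23 to 0.33 for *Srebf2*. In WT over time they were 0.18 to 0.79 for *Srebf1* and -0.031 to 0.047 for *Scap*. At ZT8 they were -0.47 to 0.14 for *Srebf1* and -0.043 to 0.11 for *Scap*, at ZT20 -0.033 to 0.16 for *Insig1*, -0.27 to 0.055 for *Insig2* and -0.11 to 0.22 for *Srebf1*, and in the interaction -0.49 to 0.12 for *Srebf1*. In a comparison chosen after seeing the data, without WT mice 2 and 3 at ZT8, the log2 ratio of *Insig2* to *Insig1* over time in WT moved to 1.36, and that of *Srebf1* to *Srebf2* to -0.89 between genotypes at ZT8 and -0.62 over time in WT. The cause of these changes was not tested.

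Samples with the same replicate number showed no common deviation (mean correlation -0.0106, range -0.07 to 0.07, against 0.0053 for other numbers, with 2 of 12 samples closest to their own number). No pairing by number was thus seen, but these values cannot show that mice of 1 number shared no litter or day. With the replicate number as a block, 1210, 479, 831, 3889 and 2399 genes passed in the 5 comparisons, *Insig1* over time in *Rev-erbα*-/- passed (0.93, adjusted p = 0.0156, edgeR), and no other call of a member changed. With 3 mice per group and no second cohort, small differences can go undetected, and the intervals given show which sizes these data leave possible.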
